A study of Mus musculus with 6 samples.

Results

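The Hox genes are the 39 homeobox genes of the mouse Hoxa, Hoxb, Hoxc and Hoxd clusters. They were taken from the RNA-seq table by gene symbol, as all symbols made of a cluster name and a number, and make up 39 of the 34245 genes measured. The data are from 3 peripheral T-cell lymphomas (PTCL), numbered tumors 1 to 3, taken from lymph nodes of terminally sick Dnmt3b+/- mice on the FVB background (FVB/N in the paper's methods). These mice carry a conventional Dnmt3b knockout allele, made from a floxed allele, on 1 chromosome and the wild-type allele on the other. The age of the mice is not given in the sources used here. RNA of 3 independent tumors was sequenced, and no other group was analysed here, so groups could not be compared and the spread over the 3 tumors is given. Expression is given as FPKM, that is fragments scaled for the exon bases of each gene and for sequencing depth. The depth recovered from the values was 30726570, 18969988 and 20770928 reads in tumors 1, 2 and 3.

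Hox genes encode transcription factors that bind DNA through a homeodomain, usually together with PBX and MEIS partners, and set positional identity along the body axis. In each cluster the genes lie in the order of their numbers, and genes with the same number in different clusters are paralogs. In blood, the Hoxa and Hoxb genes are most active in stem and progenitor cells and decline as T-cells mature, and HOXA genes are known for their activation in some acute leukemias, including T-cell leukemias. Trithorax proteins such as MLL keep Hox genes active and Polycomb proteins keep them silent.

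The labelled tumor type was checked on 12 T-cell markers. All 12 were above 0.2 FPKM in every tumor, compared with 36.7% of all genes, and their FPKM added up to 1645, 1495 and 1811. Cd8b1, a chain of the CD8 coreceptor, had the highest mean of them, with 435, 166 and 443 FPKM in tumors 1, 2 and 3. The tumors were bulk samples, so fewer cells of a type and less RNA per cell cannot be told apart.

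Of the 39 Hox genes, RefSeq promoter windows of GRCm38.p6, the build of the deposited coordinates, were matched by symbol for 22. The stretches shown here lie before the start sites of the neighbors Hoxa5 and Hoxa6, which differed most between tumors together with Hoxa7, of Hoxa9, which was close to silent, and of Hoxb4, which was expressed in every tumor. Sequences are written 5′ to 3′ on the strand of the gene, with each CG dinucleotide in capitals, the site of cytosine methylation. The Hoxa5 stretch, chr6:52204588-52204837 on the minus strand, ends at the base before the RefSeq start. It lies in introns of Hoxa3, Hoxaas3 and Gm28308, whose gene models span it. The Hoxa6 stretch, chr6:52208723-52208922 on the minus strand, ends 50 bases before the RefSeq start, where the first exon of the GENCODE model begins, and lies in introns of the same 3 genes. The Hoxa9 stretch, chr6:52227371-52227620 on the minus strand, lies in an intron of the longer GENCODE model of Hoxa9. The Hoxb4 stretch, chr11:96318017-96318266 on the plus strand, is in no annotated gene.
Hoxa5: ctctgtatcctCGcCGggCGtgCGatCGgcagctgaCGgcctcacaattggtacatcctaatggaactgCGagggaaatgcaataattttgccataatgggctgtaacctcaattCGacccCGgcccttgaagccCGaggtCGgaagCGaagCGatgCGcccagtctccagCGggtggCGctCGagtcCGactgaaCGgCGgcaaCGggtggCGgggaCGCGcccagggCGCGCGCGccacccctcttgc
Hoxa6: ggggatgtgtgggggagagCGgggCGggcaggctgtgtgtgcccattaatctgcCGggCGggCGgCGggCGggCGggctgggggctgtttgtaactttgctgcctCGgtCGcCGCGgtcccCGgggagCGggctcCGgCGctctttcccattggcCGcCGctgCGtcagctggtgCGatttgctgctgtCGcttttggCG
Hoxa9: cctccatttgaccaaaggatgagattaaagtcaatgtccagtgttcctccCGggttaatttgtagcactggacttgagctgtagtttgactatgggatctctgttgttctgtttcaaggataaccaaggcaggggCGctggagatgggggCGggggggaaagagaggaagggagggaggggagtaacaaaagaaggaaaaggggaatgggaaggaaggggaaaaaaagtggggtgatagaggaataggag
Hoxb4: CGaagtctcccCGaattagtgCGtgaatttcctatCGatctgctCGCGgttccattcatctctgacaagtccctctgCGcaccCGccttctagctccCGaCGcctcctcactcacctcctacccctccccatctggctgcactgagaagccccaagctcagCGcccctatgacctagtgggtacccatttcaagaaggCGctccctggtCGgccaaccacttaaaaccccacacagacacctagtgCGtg
These stretches held 28 CG dinucleotides before Hoxa5, 22 in the 200 bases before Hoxa6, 3 before Hoxa9 and 14 before Hoxb4. Over the 24 windows of the 22 Hox genes, each from 250 bases before to 50 after the start, the median was 14.5 CG, compared with 7 over all 32851 windows. The 6 windows of Hox genes above 0.2 FPKM in at least 1 tumor had a median of 17 and a range of 9 to 29, and the 18 windows of the other Hox genes had a median of 14 and a range of 4 to 45. The ranges of expressed and other Hox genes overlapped. The letters TGATNNAT, the core of the site that PBX and HOX proteins bind together, were searched on both strands and found in 4 of the 24 Hox windows, or 16.7%, and in 8.85% of all windows. One of them, that of Hoxa2, belongs to a Hox gene above 0.2 FPKM. DNA methylation at these stretches was not analysed here.

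Most Hox genes were silent or close to it in the tumors, and the expressed ones were the low-numbered genes of Hoxa and a pair of genes of Hoxb. In every tumor 3 of 39 Hox genes, or 7.69%, were above 0.2 FPKM, Hoxa4 and Hoxb4 among them, compared with 36.7% of all genes. The median over Hox genes of the mean FPKM was 0.0258, compared with 0.0976 over all genes and 0.0246 over 202 other homeobox genes. Genes without a read enter these medians at the FPKM of 0.9 read. Of the other homeobox genes, 65.3% had no read in any tumor, so these medians do not compare levels of expression. In at least 1 tumor 9 of 39, or 23.1%, were above 0.2 FPKM, compared with 46.3% of all genes. All 9 belong to Hoxa or Hoxb. In none of the tumors was a read recovered for 13 of 39 Hox genes, or 33.3%, compared with 41.2% of all genes. Without tumor 3 the number above 0.2 FPKM in every tumor was 8, and the matching share of all genes is not given here. In that tumor 28 Hox genes had no read, against 16 in tumor 1 and 14 in tumor 2, and tumor 3 also had the most genes without a read over all genes (42.4%, 46% and 48.5% in tumors 1, 2 and 3). All Hox genes together had 932, 788 and 128 reads.

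**Figure D1:**
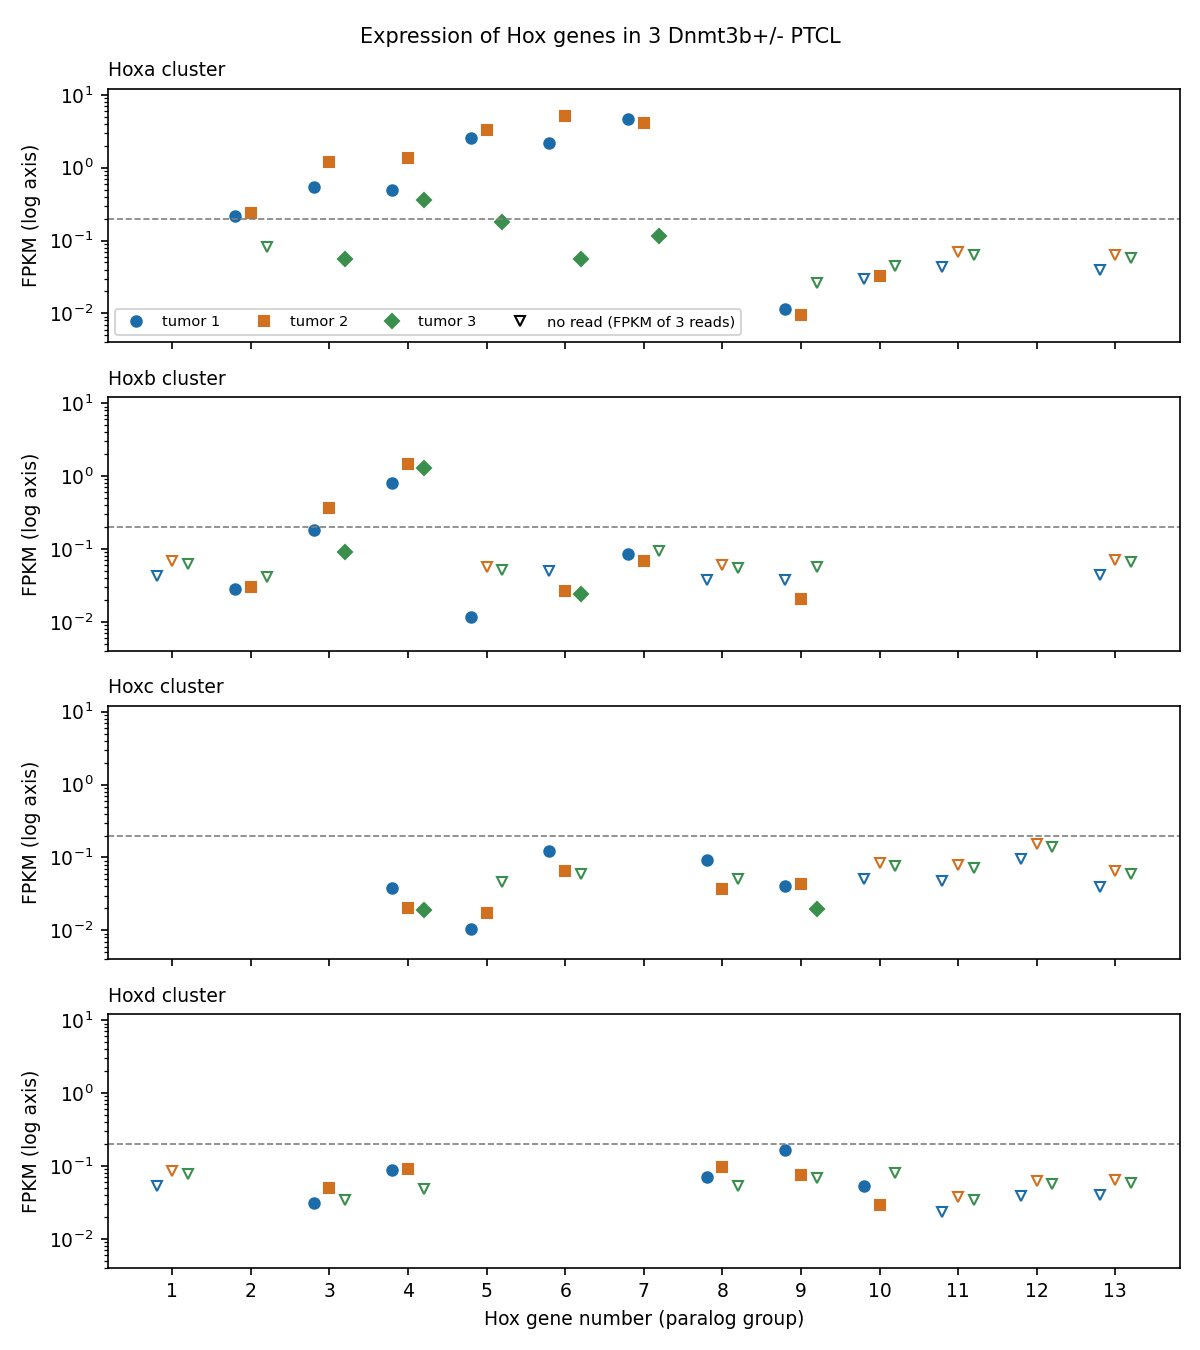
FPKM of Hox genes (log axis) by gene number in each cluster, with 1 point per tumor; open triangles mark genes without a read, drawn at the FPKM of 3 reads, and the dashed line marks 0.2 FPKM. Points above 0.2 FPKM are found in the Hoxa and Hoxb clusters up to Hoxa7, and none for the genes numbered 9 to 13.

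Expression was limited to the low-numbered genes of the clusters. Of the 8 genes numbered 1 to 3, 4 were above 0.2 FPKM in at least 1 tumor, compared with 46.3% of all genes. So were 5 of the 15 genes numbered 4 to 8, which pattern the trunk. The 16 genes numbered 9 to 13, which pattern the limbs, the lower trunk and the urogenital tract, had none. In tumors 1, 2 and 3 the genes numbered 1 to 3 had 169, 216 and 29 reads. Those numbered 4 to 8 had 744, 562 and 98, and those numbered 9 to 13 had 19, 10 and 1. Among the genes numbered 9 to 13, 15 had at most 3 reads in every tumor. The exception was Hoxd9, with 11, 3 and 0 reads in tumors 1, 2 and 3. By cluster, 7 of 11 Hoxa genes and 2 of 10 Hoxb genes were above 0.2 FPKM in at least 1 tumor. This held for none of the 9 Hoxc or the 9 Hoxd genes, compared with 46.3% of all genes.

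The Hoxa cluster on chromosome 6 held most of the Hox expression of tumors 1 and 2 but not of tumor 3. The 11 genes added up to 11.0, 16.3 and 1.15 FPKM in tumors 1, 2 and 3 (mean 9.51 ± 7.71, SD, n = 3). This was 84.7%, 85.6% and 38.0% of all Hox FPKM. The Hoxb cluster, chr11:96194316-96368256 in GRCm38, varied less, with 1.17, 2.04 and 1.54 FPKM in tumors 1, 2 and 3 and a mean of 1.58 ± 0.437 (SD, n = 3). The Hoxc cluster, chr15:102921103-103036852, had a mean of 0.287 ± 0.0919 FPKM (SD, n = 3), and the Hoxd cluster, chr2:74668310-74765142, of 0.341 ± 0.165 FPKM (SD, n = 3). Genes without a read carry the FPKM of 0.9 read in the deposited values, and the 0.153 FPKM of the Hoxd cluster in tumor 3 comes from such genes alone.

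Hoxa5, Hoxa6 and Hoxa7, neighbors in the middle of the cluster, were the most abundant Hox genes. Hoxa7 (ENSMUSG00000038236) reached 4.68, 4.16 and 0.117 FPKM (414, 227 and 7 reads) in tumors 1, 2 and 3. Tumors 1 and 2 differed by less than the counting error, and tumor 3 was far below both. The FPKM of Hoxa7 in tumor 1 was 40.0 times that in tumor 3 (95% counting interval 19.2 to 100.1), and in tumor 2 it was 35.5 times (17.0 to 89.3). Its mean of 2.99 ± 2.50 FPKM (SD, n = 3) was higher than that of 76.2% of all genes. Counting intervals are exact and cover counting error only.

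Hoxa6 (ENSMUSG00000043219) reached 2.16, 5.13 and 0.0551 FPKM (58, 85 and 1 reads). Tumor 3 was again the lowest, with a ratio of tumor 1 to tumor 3 of 39.2 (95% counting interval 6.76 to 1575) and of tumor 2 to tumor 3 of 93.1 (16.3 to 3719). Hoxa5 (ENSMUSG00000038253), which is known for its part in lung and skeletal patterning, was at 2.51, 3.31 and 0.180 FPKM (145, 118 and 7 reads). It was 14 times (6.63 to 35.5) and 18.5 times (8.68 to 46.9) higher in tumors 1 and 2 than in tumor 3. Neither gene shares exon bases with another annotated gene. Hoxa3 (ENSMUSG00000079560), needed for the thymus and parathyroid to form, was at 0.541, 1.19 and 0.0560 FPKM (100, 136 and 7 reads) and was 9.66 times (4.52 to 24.6) and 21.3 times (10.05 to 53.9) higher in tumors 1 and 2 than in tumor 3.

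Hoxa3, Hoxa5, Hoxa6 and Hoxa7 were thus at least 4 times lower in tumor 3 than in both other tumors, 4 of the 9 Hox genes above 0.2 FPKM in at least 1 tumor, or 44.4%. All 4 were below 0.2 FPKM in tumor 3 and passed this threshold through tumors 1 and 2 alone. The threshold thus favors genes low in 1 tumor, here and wherever the rule is used below. Without the threshold, 4 of the 39 Hox genes met the rule, and the matching share of all genes is not given here. The rule was set after the values were seen. Over all 15859 genes above 0.2 FPKM in at least 1 tumor, 3.71% met it. The same rule for tumor 1 was met by 0.713% of all genes and for tumor 2 by 1.77%, and by none of the 9 Hox genes in either case. The 4 genes lie next to each other, with only Hoxa4 between Hoxa3 and Hoxa5.

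Hoxa4 differed less between tumors, and Hoxa2 had too few reads to say so. Hoxa4 (ENSMUSG00000000942) was at 0.490, 1.36 and 0.362 FPKM (24, 41 and 12 reads). The ratio of tumor 1 to tumor 3 was 1.35 (95% counting interval 0.650 to 2.97), so these tumors could not be told apart at this depth, and tumor 2 was 3.74 times tumor 3 (1.93 to 7.82). Hoxa2 (ENSMUSG00000014704), which patterns the second branchial arch, was at 0.220 and 0.238 FPKM (12 and 8 reads) in tumors 1 and 2 and had no read in tumor 3, which allows up to 0.0814 FPKM. The lower 95% counting limit of its ratio of tumor 1 to tumor 3 was 1.88.

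The signal ended between Hoxa7 and Hoxa9, whose gene models lie 1245 bases apart. Hoxa9 (ENSMUSG00000038227), the Hox gene best known from acute myeloid leukemia, had 2, 1 and 0 reads in tumors 1, 2 and 3, although its exon length of 5580 bases exceeds that of every other Hox gene but Hoxa3. Hoxa10 had 0, 2 and 0 reads, and Hoxa11 and Hoxa13 had none. Together Hoxa9 to Hoxa13 had 2, 3 and 0 reads, against 741, 607 and 34 for Hoxa3 to Hoxa7.

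**Figure D2:**
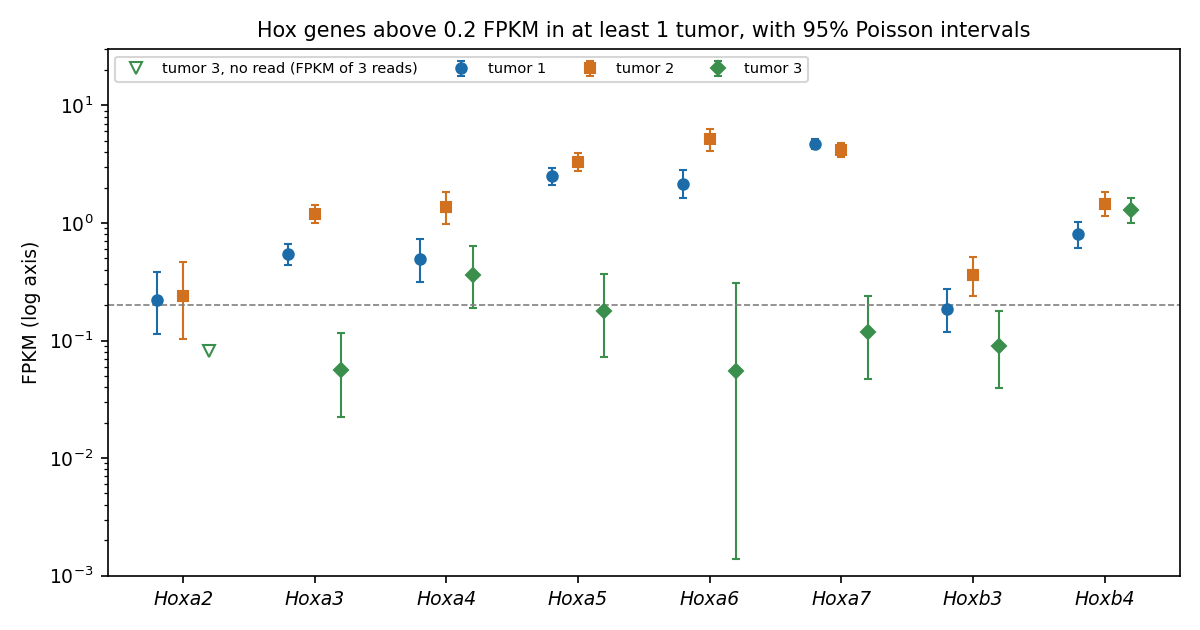
FPKM (log axis) of Hox genes above 0.2 FPKM in at least 1 tumor, with exact 95% Poisson intervals of the recovered reads as bars; the open triangle marks a gene without a read at the FPKM of 3 reads and the dashed line 0.2 FPKM. Tumor 3 lies apart from tumors 1 and 2 for Hoxa3, Hoxa5, Hoxa6 and Hoxa7. For Hoxb4, with 1.29 FPKM, tumor 3 lies at the level of tumor 2 and above tumor 1.

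Hoxb4 was the Hox gene with the steadiest expression of those above 0.2 FPKM in at least 1 tumor. Hoxb4 (ENSMUSG00000038692), known for expanding blood stem cells when overexpressed, was at 0.799, 1.46 and 1.29 FPKM (63, 71 and 69 reads; mean 1.18 ± 0.343, SD, n = 3). Tumor 1 was the lowest, at 0.617 times tumor 3 (95% counting interval 0.432 to 0.881), and tumors 2 and 3 differed by less than the counting error (ratio 1.13, 0.797 to 1.59). Of all Hox FPKM, Hoxb4 made up 6.13%, 7.64% and 42.7% in the 3 tumors, and it shares no exon bases with another annotated gene. Hoxb3 (ENSMUSG00000048763) was at 0.184, 0.360 and 0.0906 FPKM (24, 29 and 8 reads), with a ratio of tumor 2 to tumor 3 of 3.97 (1.77 to 10.05). The other 8 Hoxb genes had at most 4 reads in a tumor.

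In the Hoxc and Hoxd clusters no gene reached 0.2 FPKM. Hoxd9 (ENSMUSG00000043342) came closest, with 0.168 FPKM in tumor 1 and 0.0740 in tumor 2, and no read in tumor 3, which allows up to 0.0676 FPKM, and the lower 95% counting limit of the ratio of tumor 1 to tumor 3 was 1.70. In tumor 3 the 9 Hoxd genes had no read between them, against 32 reads in tumor 1 and 18 in tumor 2, and the 9 Hoxc genes had 2 reads, against 24 and 9. Across the 4 clusters, 16 Hox genes had between 1 and 9 reads in their highest tumor and at most 0.122 FPKM. For the 13 genes without a read, namely Hoxa11, Hoxa13, Hoxb1, Hoxb8, Hoxb13, Hoxc10 to Hoxc13, Hoxd1 and Hoxd11 to Hoxd13, a count of 0 allows between 0.0232 and 0.153 FPKM, so expression below that was not detectable at this depth.

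Over the 9 Hox genes above 0.2 FPKM in at least 1 tumor, the median SD over tumors of log2(FPKM + 0.1) was 0.87, compared with 0.45 over all 15859 such genes. These genes passed the threshold in part through the tumor in which they were high. Hoxa6 was the only one with over 66.7% of its summed FPKM in 1 tumor, 69.8% in tumor 2, and Hoxa3 lay just below with 66.6%. This is 1 of 9, or 11.1%, compared with 12.1% of all such genes. With median-of-ratios factors the number was 2.

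Several Hox genes share exon bases with genes on the other strand, and the strand setting of the read counting is not stated. For 24 genes with at least 90% of their exon bases inside exons of a gene of 20 FPKM or more on the other strand, the median ratio of the gene's FPKM to that of its partner was 0.976, with a range of 0.00258 to 7.10, and 20 of the 24 were above 0.5. Most pairs thus look counted without regard to strand, and if so, reads of a Hox gene and an antisense gene cannot be told apart where their exons overlap, as for Hoxa3, Hoxa4, Hoxa7 and Hoxb3. Hoxb3 shares 2250 of its 4251 exon bases with Hoxb3os. At the mean read density of Hoxb3os, these bases alone would hold 11.2, 11.8 and 1.61 reads in tumors 1, 2 and 3, against the 24, 29 and 8 reads of Hoxb3, so the level of Hoxb3 itself is uncertain. Hoxa2 shares 267 bases with Gm28308, a gene model on the same strand that also spans Hoxa3, for which the same count was 3.55, 16.0 and 0 reads. In tumor 2 this exceeds the 8 reads of Hoxa2, so the mean density does not hold on these bases there, and the level of Hoxa2 itself is uncertain. Hoxa3 shares 1631 of its 6014 exon bases with other genes. For it the same count was 15.1, 9.56 and 1.13 reads with Hoxaas3 and 6.41, 28.8 and 0 with Gm28308, against 100, 136 and 7. Other overlapping genes add further reads, so the level of Hoxa3 is also less certain. For Hoxa7 the overlap with Hoxaas3 would hold 29.8, 18.9 and 2.23 reads by the same count, against 414, 227 and 7. Conversely, reads of Hoxa7 on these bases may be counted for Hoxaas3.

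Of 22 noncoding RNAs listed for the Hox clusters, 12 were found in the table, of which 1700025K24Rik, without a read, lies on chromosome 17 outside the clusters. Hotairm1, a myeloid noncoding RNA, was the most abundant and did not share the pattern of Hoxa5 to Hoxa7, with 2.25, 9.51 and 5.03 FPKM in tumors 1, 2 and 3. Hoxaas3, an antisense RNA running from Hoxa3 to Hoxa7, had 1.66, 1.70 and 0.183 FPKM, and Hoxaas2 had 0.368, 0.361 and 0.0430. Hoxb3os had 0.163, 0.276 and 0.0344 FPKM. Hoxaas2, Hoxaas3 and Hoxb3os were at least 4 times lower in tumor 3 than in both other tumors, 3 of the 4 above 0.2 FPKM in at least 1 tumor, compared with 3.71% of all such genes. They share exon bases with Hox genes, so their values are not independent of those of Hoxa3, Hoxa7 and Hoxb3. Without a read in any tumor were 6 of the 12, compared with 41.2% of all genes. These 6 include Hottip, which lies beyond Hoxa13, and Hotair in the Hoxc cluster. Further genes of the Hoxa interval, named here after their values were seen, were Gm15050 with 1.12, 0.764 and 0.262 FPKM, 5730596B20Rik with 0.330 and 0.472 FPKM in tumors 1 and 2 and no read in tumor 3, and Gm28308 with 0.433 and 3.15 FPKM in tumors 1 and 2 and no read in tumor 3.

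**Figure D3:**
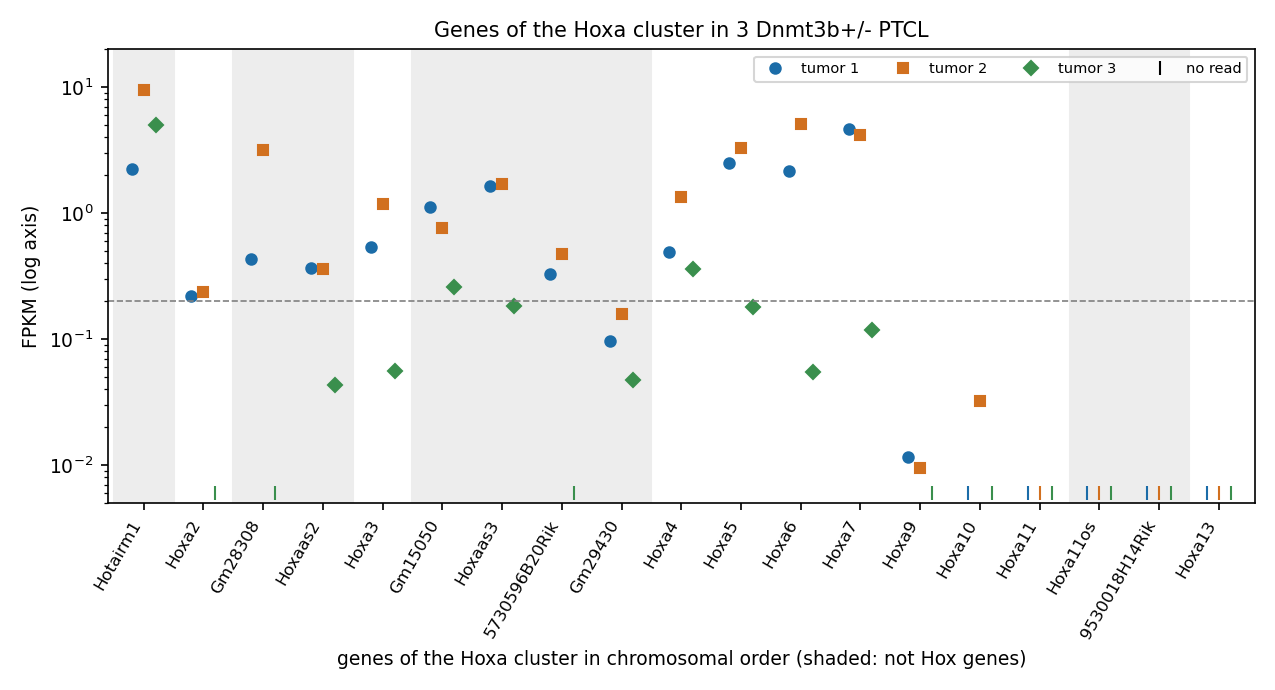
FPKM (log axis) of genes in the Hoxa cluster, ordered by their lower chromosomal coordinate, with 1 point per tumor, ticks at the bottom for genes without a read, shading for genes that are not Hox genes and a dashed line at 0.2 FPKM. In tumors 1 and 2 the Hox genes shown up to Hoxa7 lie above 0.2 FPKM and those from Hoxa9 on below it, and tumor 3 is high for Hotairm1, with 5.03 FPKM.

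Of 19 genes found on the list of cluster neighbors, 15 were above 0.2 FPKM in every tumor, compared with 36.7% of all genes. Beside the Hoxa cluster, mean FPKM was 2.22 ± 1.45 for Snx10, 2.19 ± 0.607 for the adaptor Skap2, 2.15 ± 0.680 for Hibadh and 9.24 ± 3.70 for Tax1bp1 (SD, n = 3 each). The homeobox gene Evx1, next to Hoxa13, had 23 reads and 0.421 FPKM in tumor 2 and no read in tumors 1 and 3. Beside the Hoxb cluster, the T-cell adaptor Skap1 had 16.9 ± 0.733 FPKM and Atp5g1 11.1 ± 2.30 (SD, n = 3), and Ttll6 and Calcoco2 had no read. Beside the Hoxc cluster, mean FPKM was 134 ± 7.74 for Hnrnpa1, 35.4 ± 3.93 for Copz1, 18.5 ± 4.50 for Cbx5, 5.03 ± 2.53 for Calcoco1 and 4.605 ± 1.25 for Smug1 (SD, n = 3 each). Beside the Hoxd cluster, mean FPKM was 3.52 ± 1.27 for Mtx2 and 1.47 ± 0.725 for Lnpk (SD, n = 3 each), and Evx2 had no read. Further out on chromosome 2 and not beside the cluster, it was 158 ± 26.8 for Hnrnpa3 and 3.42 ± 1.19 for Atf2 (SD, n = 3 each). Most genes found on this list were thus expressed in every tumor, and Evx1, Evx2, Ttll6 and Calcoco2 were not.

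Activators and repressors of Hox genes were expressed in every tumor, and the inducers in part. All 17 MLL and trithorax activators and all 19 Polycomb repressors were above 0.2 FPKM in every tumor, compared with 36.7% of all genes. The summed FPKM of the activators was 181, 188.5 and 150 in tumors 1, 2 and 3. Their most abundant members were Kmt2d with 23.3 ± 13.1 FPKM, Mllt1 with 19.0 ± 7.04, Psip1 with 17.1 ± 6.36 and Kmt2a, which encodes MLL, with 14.9 ± 3.31 (SD, n = 3 each). The summed FPKM of the repressors was 151, 129 and 104.5 in tumors 1, 2 and 3, and they include Suz12 with 15.9 ± 6.10 FPKM, Phc2 with 11.7 ± 2.85 and Phc3 with 10.8 ± 8.93 (SD, n = 3 each). Of 14 upstream inducers, 7 were above 0.2 FPKM in every tumor, led by the boundary protein Ctcf with 19.2 ± 5.33 FPKM and the retinoid receptors Rxrb with 11.8 ± 2.25, Rara with 6.73 ± 1.15 and Rxra with 4.71 ± 0.807 (SD, n = 3 each). The caudal genes Cdx1 and Cdx2, activators of Hox genes in the embryo, had no read, and Cdx4 had 2, 1 and 0 reads.

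Of the 10 TALE cofactors, the homeodomain proteins of the PBX, MEIS and PKNOX families that bind DNA with HOX proteins and the PBX partner Pbxip1, 4 were above 0.2 FPKM in every tumor, or 40%, close to the 36.7% of all genes. Pbxip1 had 22.6 ± 7.34 FPKM, Pbx2 13.5 ± 1.40, Pknox1 8.12 ± 0.393 and Meis3 6.55 ± 1.01 (SD, n = 3 each). Meis1, the usual partner of Hoxa9 in leukemia, was close to silent, with 9, 6 and 5 reads in tumors 1, 2 and 3.

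Fibroblast, stroma and pancreatic acinar markers were low in the same tumor as the Hoxa genes, and other lists were so in part or not. All 10 fibroblast and stroma markers were at least 4 times lower in tumor 3 than in both others, compared with 3.71% of all genes above 0.2 FPKM in at least 1 tumor, and they added up to 17.7, 66.4 and 0.694 FPKM. By mean FPKM, which ranks the genes of each list here, Sparc led them. Of these markers, 7 had at most 3 reads in tumor 3, including the collagen Col3a1 with 1 read and Lum, Pdgfra and Pdpn with none. All 8 pancreatic acinar markers were likewise lower in tumor 3, with sums of 87.0, 440.3 and 0.657 FPKM, led by Ctrb1, which had no read in tumor 3. The sums for endothelium were 19.3, 17.0 and 5.44 FPKM in tumors 1, 2 and 3, led by Pecam1, with 4 of the 7 above 0.2 FPKM in at least 1 tumor lower by the same rule. Those for smooth muscle were 4.22, 21.4 and 1.27, led by Tagln, with 3 of 4 such genes, and those for adipocytes were 1.53, 19.3 and 0.165, led by Cfd, which had no read in tumor 3, with 2 of 4. The erythroid and megakaryocyte sums were 133.6, 30.1 and 3.82 FPKM, led by Hba-a1, with 2 of 6, and the stem and progenitor sums were 5.81, 4.68 and 1.73 FPKM, led by Procr, with 1 of 6. Ppbp and Gp9 on these lists had no read in any tumor.

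Other lists had no gene that met the rule for tumor 3. The myeloid sums were 302, 91.8 and 48.3 FPKM, led by Lyz2, with 0 of 8 such genes lower by the rule and no read in any tumor for Elane. The B-cell sums were 64.2, 50.7 and 121.5 FPKM, led by Cd79a, with 0 of 8. The epithelial sums were 14.3, 2.83 and 0.981 FPKM, led by Cdh1, and the islet sums were 1.48, 0.292 and 0.386 FPKM, led by Gcg, with 0 of 3 and 0 of 1. Cdh1 alone had 13.7 FPKM in tumor 1, whereas Epcam, Krt8 and Krt18 were highest in tumor 2. The B-cell sum of tumor 2 likewise rests mostly on 1 gene, Cd22, at 5.84, 36.5 and 13.9 FPKM. All other B-cell markers were lowest in tumor 2, and 5 of the 8 met the rule for that tumor. No read was found in any tumor for Krt5, Krt14, Krt19, Iapp and Sst. For comparison, the sum of Hoxa3 to Hoxa7 was 10.4, 15.15 and 0.770 FPKM. The ratio of tumor 2 to tumor 1 was 1.46 for this sum, 3.75 for the fibroblast and stroma markers, 5.06 for the acinar markers and 0.879 for the endothelial markers. Pecam1 made up most of the endothelial sums, with 12.2 and 10.9 FPKM in tumors 1 and 2. Lyve1, with 4.13 and 1.28 FPKM, fell by more than Pecam1. Kdr, Tek, Lyve1 and Prox1 were likewise lower in tumor 2 than in tumor 1, and Cdh5, Emcn, Vwf, Tie1 and Egfl7 were higher. The part of these cell types in the Hoxa differences was not tested.

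**Figure D4:**
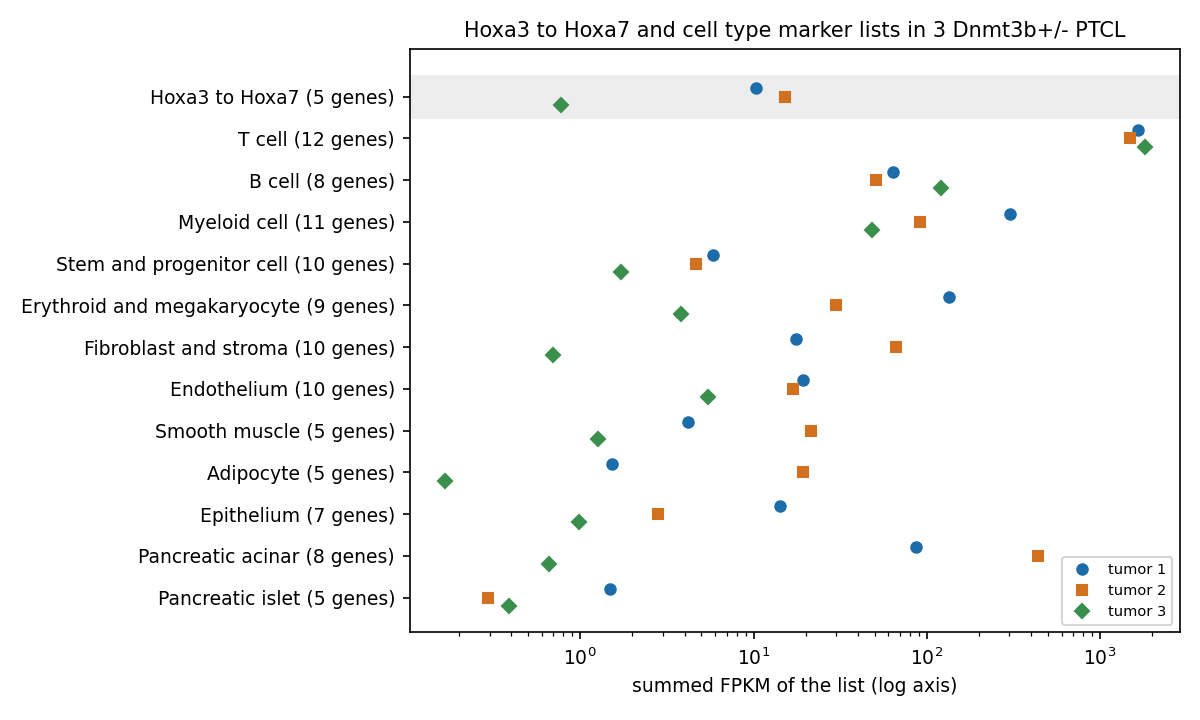
Summed FPKM (log axis) of Hoxa3 to Hoxa7, shaded, and of 12 cell type marker lists, with 1 point per tumor and the number of genes in brackets. Tumor 3 is low for Hoxa3 to Hoxa7, fibroblast and stroma and pancreatic acinar markers, with 0.770, 0.694 and 0.657 FPKM, and at the level of the other tumors for T-cell markers, with 1811.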

How the data were processed

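RNA-seq of 3 Dnmt3b+/- PTCL was analysed. The values the authors deposited are FPKM, made from paired-end 150 bp reads aligned to mm10 with STAR, kept at a mapping quality of at least 50 and quantified in SeqMonk. The authors' processing notes also name DESeq2, which was not used here. Whole-genome bisulfite sequencing was not analysed here. Members and lists were chosen with earlier results of these data known.

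A count of 0 was deposited as the value of 0.9 read, which gave the depth of each library. Reads were recovered with GENCODE M21 exon lengths, available for 99.6% of genes. Within 0.02 read (or 0.02% of the read count for larger counts), 93.2% of these came out whole in all tumors, among them all 39 Hox genes, and 591 others whose values were the same multiple of 1 read in each tumor were counted as without a read. A count of 0 allows 3 reads. Intervals are exact at 95% (Poisson, or Clopper-Pearson for ratios of reads). Hox genes above 0.2 FPKM, or with 10 or more reads, in at least 1 tumor were named, as were genes from the 4 most abundant of each regulator and cofactor list and all noncoding and neighboring genes above 0.2 FPKM in at least 1 tumor; some genes that met these rules are not reported here. The steps were tested on simulated data. Python 3.11, pandas, NumPy, SciPy and matplotlib were used. The alternatives were other thresholds, pseudocounts, filters and scalings and each tumor left out in turn.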

Additional observations from a re-analysis of the deposited data

How the results depend on the processing

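No paired analysis was possible because the results come from no test between groups, and the numbers shared with the bisulfite samples therefore pair nothing here. Rescaling each tumor's FPKM to sum to 1000000 raised all levels: 8 Hox genes were then above 0.2 FPKM in every tumor and 20 in at least 1, and the mean summed FPKM was 47.5 for Hoxa, 7.65 for Hoxb, 1.42 for Hoxc and 1.70 for Hoxd. At thresholds of 0.1 and 1 FPKM, 5 and 0 Hox genes passed in every tumor, and without 1 tumor the number was 3 to 8, the highest without tumor 3. For all genes, the shares under these settings and the rescaling are not given here. At most 3 reads in every tumor were found for 23 Hox genes. With a share of 50% in place of 66.7%, 7 Hox genes had most of their FPKM in 1 tumor, with median-of-ratios factors 2, and without 1 tumor 4 to 8, where only 2 tumors share the sum. The median SD on the log2 scale was 0.42 with a pseudocount of 1, 0.12 without a filter and 0.56 to 1.20 without 1 tumor, the lowest without tumor 3. Hoxa3, Hoxa5, Hoxa6 and Hoxa7 were 4 times lower in tumor 3 under all 3 scalings, and also 8 times lower. These alternatives were chosen after seeing the data; 2 times gave 6 genes and no floor of 3 reads gave 5. The means of the 9 named Hox genes moved by over 1 SD in 9 of 45 cases, all under the rescaling, which multiplied all genes by 4.47 to 5.30. Leaving out 1 of 3 tumors cannot move a mean by 1 SD, so this count says nothing on single tumors. Without tumor 2 the mean FPKM fell from 2.45 to 1.11 for Hoxa6 and from 0.596 to 0.299 for Hoxa3. Without tumor 3 it rose from 2.99 to 4.42 for Hoxa7. Counts of 1 to 9 reads limit statements on 16 Hox genes.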

Other observations

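Outside the clusters, 202 other genes had homeobox in their description. Of these, 21 were above 0.2 FPKM in every tumor (10.4%, all genes 36.7%), 35 in at least 1 tumor (17.3%, all genes 46.3%) and 132 had no read in any tumor (65.3%, all genes 41.2%). Hhex and Pbx3 were at least 4 times lower in tumor 2 than in both other tumors. Of the 33 blood homeobox and related genes on the list, 11 were above 0.2 FPKM in every tumor, close to the 36.7% of all genes. The most abundant were Hopx with 62.6 ± 21.5 FPKM, Adnp with 17.0 ± 3.16, the T-cell chromatin organizer Satb1 with 9.52 ± 4.34 and Zeb1 with 3.61 ± 0.0451 (SD, n = 3 each). Tlx1 and Tlx3, homeobox genes activated in some T-cell leukemias, had no read in any tumor. Prrx1, a mesenchymal homeobox gene named after its values were seen, had 11, 213 and 4 reads in tumors 1, 2 and 3, and Lhx6, likewise, had 1, 20 and 0.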
